A study of Homo sapiens with 12 samples.

Results

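The genes described here encode the proteins through which epithelial cells hold on to their surroundings. They are 12 integrin subunits, 15 components of the basement membrane, 4 genes of the hemidesmosome and its anchoring fibrils, 6 interstitial and matricellular proteins and 2 syndecans, 39 genes in all. They were taken by gene name from a written list in each of the deposited count tables and joined between the tables by Ensembl identifier without the version suffix. This list and the other lists below were chosen with earlier results of these data known. Counts of members set beside shares of all genes are therefore descriptions and not tests of the list. The KYSE30 table listed 38 of the 39 among its 30984 genes, and *LAMA1* was not analysed in that line. The table of the libraries labelled U138MG listed all 39 among 78691 genes. After the filter on low counts, 35 of the 16389 genes tested in KYSE30 and 38 of the 17666 tested in the other table were members.

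PTDSS1 makes phosphatidylserine by exchanging the head group of phosphatidylcholine, and PTDSS1i is DS55980254, a small-molecule inhibitor of that enzyme. RNA-seq of poly-A RNA covered KYSE30, a line of esophageal squamous cell carcinoma (ESCC), and a line labelled U138MG, a glioblastoma (GBM) line. In each line 3 libraries came from cells given 100 nM PTDSS1i and 3 from cells given DMSO, the vehicle, and all were collected at 48 h. The labels give every sample as WT, so by the labels the groups differed in cell line and agent, and nothing in the labels states that replicates were separate cultures. The p-values therefore measure the spread between these libraries, which may be technical. The labels also put each line in a batch of its own, so a difference between the lines and a difference between the batches cannot be told apart.

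Integrins are dimers of an alpha and a beta chain that span the plasma membrane and bind matrix proteins outside the cell. The beta 1 chain pairs with many alpha chains, the alpha v chain with several beta chains, and the beta 4 chain with alpha 6 in the hemidesmosome, which fastens basal epithelial cells to laminin. The basement membrane itself is a sheet of laminin trimers and collagen IV, linked by nidogen and heparan sulfate proteoglycans, whereas fibronectin, tenascin, thrombospondin and SPARC belong to the provisional and interstitial matrix.

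The libraries held between 18800932 and 26514658 counts, and replicates differed from each other beyond sampling noise in all groups. Levels are given as normalized CPM, counts relative to each library's total after edgeR's TMM scaling, computed separately for each table, so levels in one line are not set against levels in the other. In the shallowest library 3 counts were worth 0.16 CPM. Of the 39 members, 21 share exon bases with another gene in GENCODE release 29, and no source used here says if counting was stranded, so counts of these genes are uncertain. In KYSE30 the squamous markers *TP63* and *CDH1* stood at 94.7 and 496 normalized CPM in DMSO. *EPCAM*, *KRT13*, *KRT15*, *DSC3* and *DSG3* had 269.9, 146, 39.9, 21.8 and 16.9 there. Other squamous markers were low in KYSE30, with *KRT6A*, *KRT17* and *KRT14* at 5.06, 2.95 and 0.343 and *KRT5* at no more than 3 counts. The markers of the libraries labelled U138MG did not match that label throughout. Of the 10 glial and glioblastoma markers, *OLIG2* and *S100B* had 0 counts in all 6 libraries, and *FABP7* had at most 2. In DMSO *GFAP*, *AQP4* and *PTPRZ1* had 2.24, 2.04 and 4.27 normalized CPM, *NES* and *CHI3L1* 0.530 and 0.479, and *SOX2* and *CD44* 37.0 and 386, the last pair also present in KYSE30 at 96.1 and 516. *VIM* had 0.196, and the squamous markers *KRT5*, *TP63* and *CDH1* had 1399, 262 and 441, whereas *KRT14* and *KRT6A* had 0.189 and 0.464. The libraries of this line are therefore called the libraries labelled U138MG throughout.

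Marker genes of several cell types moved with treatment. In the libraries labelled U138MG the 11 squamous markers summed to 7089.8–7974 normalized CPM in DMSO and 2587–2815 in PTDSS1i, with 4 higher and 6 lower. Most of that fall was *KRT15*, from 4629 to 482, and *KRT5* fell from 1399 to 554. Among those higher, *KRT17* rose from 276 to 709 and *EPCAM* from 236 to 366. In KYSE30 the sum of the 11 went from 1067–1125 to 1263–1315, with 6 higher and 3 lower. The 9 mesenchymal and fibroblast markers in the KYSE30 table summed to 10.8–11.8 in DMSO and 30.6–36.7 in PTDSS1i, with *VIM* at 3.87 and 25.5 and *CDH2* at 6.04 and 7.45. Of these 9, 2 were called higher and 1 lower, *COL3A1*, at 1.27 and 0.425. The 10 mesenchymal markers summed to 14.1–16.3 and 15.3–16.5 in the libraries labelled U138MG, with 1 higher and 1 lower. There *FAP* rose from 1.14 to 2.63 and *COL3A1* fell from 2.49 to 0.393. *COL1A2*, *DCN* and *PDGFRA* had at most 3 counts in any library of either line. The 8 glial and glioblastoma markers listed in KYSE30 summed to 579.8–649 and 1061–1105, mostly through *CD44*, and the 10 in the other line to 429–439.9 and 736–765. There too *CD44* made up most of the sum, at 386 and 729. Of those 10 markers, 3 were called higher and 3 lower, with *SOX2* falling from 37.0 to 4.52. Endothelial markers summed to 16.7–18.4 and 42.1–50.4 in KYSE30 and to 19.2–21.8 and 28.6–32.7 in the other line, with *KDR* at no more than 3 counts in both. Blood markers summed to no more than 2.72 in any library. The part of these shifts in the changes below was not tested, and in bulk RNA fewer cells of a type cannot be told apart from less RNA per cell.

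In KYSE30, 9 of 11 integrin, 3 of 4 hemidesmosome and both syndecan genes tested rose with PTDSS1i while fibronectin, thrombospondin 1, tenascin C, SPARC and the major collagen IV chains fell. Of the 35 members tested, 21 were higher and 9 lower (adjusted p under 0.05 in edgeR's quasi-likelihood test, Benjamini-Hochberg adjustment over all 16389 genes). Over all genes tested, 62.0% were called, 30.1% higher and 32.0% lower. With the further requirement of a log2 fold change beyond 1, 6 members were higher and 5 lower, against 6.40% and 7.04% of all genes, 13.4% in either direction. The median log2 fold change was 0.25 over the members and -0.03 over all genes, and the 2 treatments were separate, without overlap, for 31 of the 35, against 66.3% of all genes.

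In the libraries labelled U138MG, *TNC*, *ITGA5*, *COL4A1*, *ITGA3* and *ITGA1* rose by the largest folds among members that reached the low-count cutoff in every library, and no member fell past the same fold. Of the 38 members tested, 23 were higher and 10 lower in the same edgeR test, against 33.9% and 33.6% of 17666 genes, 67.5% in either direction. *LAMA1* is counted there and passed the filter on low counts only with its PTDSS1i libraries. Past a log2 fold change of 1 there were 11 higher, against 8.19% of all genes, and 0 lower, against 11.6%, with 19.8% in either direction. *COL17A1* at -1.0 and *LAMB1* at -0.98 lay at the lower threshold, and *ITGB1* at 1.00 lay just under the upper one. Genes of the other lists did fall past that fold there. Other integrin subunits had 3 higher and 4 lower of 9, other basement membrane genes 4 and 7 of 15, and other interstitial matrix genes 1 and 8 of 25. Collagen synthesis enzymes had 1 and 1 of 22, focal adhesion genes 2 and 4 of 32, and other cell-surface proteoglycans 2 and 2 of 8. The median was 0.35 over the members and -0.03 over all genes. For 35 of the 38 the treatments did not overlap, against 71.4% of all genes.

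**Figure D1:**
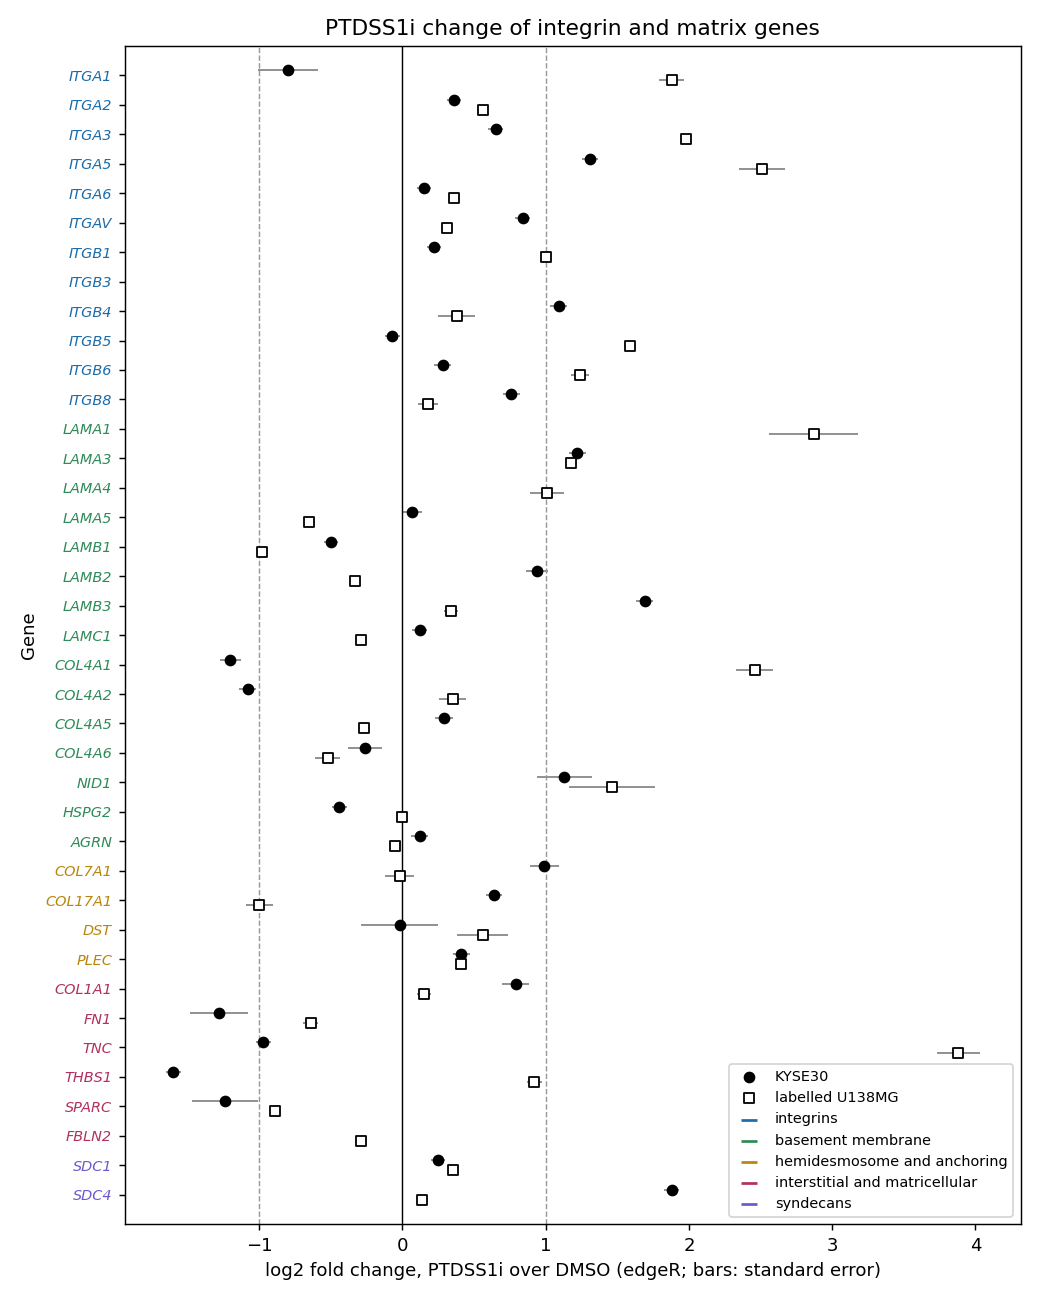
The horizontal axis gives the log2 fold change of PTDSS1i over DMSO from edgeR with its standard error, and each row is 1 gene, coloured by class, with filled circles for KYSE30 and open squares for the libraries labelled U138MG. Integrin rows lie to the right of 0 in both lines except ITGA1 and ITGB5 in KYSE30, while COL4A1, TNC and THBS1 lie on opposite sides of 0 in the 2 lines. Dashed lines mark a log2 fold change of 1 in each direction.

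Among the 12 integrin subunits, 11 were tested in each line. In KYSE30, 9 rose, *ITGA1* fell and *ITGB5* did not pass the test, with a class median of 0.36. Of those in the libraries labelled U138MG, 10 rose, none fell and *ITGB4* did not pass, with a class median of 1.00. The fibronectin receptor chain alpha 5, *ITGA5* (ENSG00000161638, hg38 chromosome 12, 54395261 to 54419460, minus strand), was the integrin with the largest fold change in both lines. In KYSE30 it had 33.9, 33.2 and 33.8 normalized CPM in DMSO and 86.7, 82.7 and 80.5 in PTDSS1i (log2 fold change 1.31, standard error 0.057, edgeR adjusted p = 2.04e-14). The libraries labelled U138MG had 13.2, 20 and 14.4 in DMSO and 95.3, 94.8 and 82.9 in PTDSS1i (2.51, standard error 0.16, edgeR adjusted p = 0.000113). Every PTDSS1i library lay above every DMSO library of its line.

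The alpha 3 chain, a laminin receptor with beta 1, rose in both lines but more in the libraries labelled U138MG. *ITGA3* (ENSG00000005884, chromosome 17, 50055968 to 50090481) had 719, 715 and 689 normalized CPM in DMSO and 1140.0, 1091 and 1107 in PTDSS1i in KYSE30 (log2 fold change 0.65, standard error 0.052, edgeR adjusted p = 3.83e-10). In the other line it went from 292, 299.6 and 288 to 1178, 1149 and 1138 (1.98, standard error 0.034, edgeR adjusted p = 3.72e-27). The change was larger by 1.29 on the log2 scale there (standard error 0.060, edgeR adjusted p of the interaction of line and treatment = 1.03e-17). Its partner chain *ITGB1* moved less in KYSE30, with 364, 361 and 377 in DMSO and 434, 409.6 and 444 in PTDSS1i (log2 fold change 0.22, edgeR adjusted p = 0.000668). *ITGB1* in the libraries labelled U138MG went from 284, 278 and 290.1 to 572, 568 and 563 (1.00, standard error 0.033, edgeR adjusted p = 9.52e-21). Treatments did not overlap in either line for either gene.

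The collagen receptor chains differed. *ITGA2*, alpha 2, rose by log2 fold changes of 0.36 in KYSE30 and 0.56 in the libraries labelled U138MG (edgeR adjusted p = 2.5e-06 and 6.99e-13). *ITGA1* (ENSG00000213949, chromosome 5, 52787896 to 52959210), alpha 1, fell in KYSE30 from 2.74, 2.27 and 2.13 to 1.17, 1.43 and 1.49 normalized CPM, on 25 to 56 counts per library (-0.80, standard error 0.21, edgeR adjusted p = 0.00233). It rose instead in the libraries labelled U138MG, from 7.14, 7.43 and 7.85 to 27, 25.7 and 29.7 (1.88, standard error 0.088, edgeR adjusted p = 3.9e-17). Its exons share 1273 bases with 4 other genes, *PELO* among them.

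The alpha v chain binds vitronectin, fibronectin and latent TGF-beta, depending on its beta partner, and its partners moved unevenly. *ITGAV* rose in KYSE30 from 283, 315 and 312 to 539, 548 and 546 normalized CPM (log2 fold change 0.84, edgeR adjusted p = 8.4e-12), and in the libraries labelled U138MG from 134, 131 and 136 to 167, 172 and 161 (0.31, edgeR adjusted p = 1.55e-08). *ITGB5* had 265, 276 and 254 in DMSO and 266, 239 and 251 in PTDSS1i in KYSE30, where the groups overlapped (-0.07, edgeR adjusted p = 0.248). Scaling by library size alone made it a call of lower in KYSE30 (-0.18, edgeR adjusted p = 0.0042). In the other line it rose from 40.4, 42.1 and 42.3 to 126, 125 and 126 (1.59, edgeR adjusted p = 6.17e-23). *ITGB5* was thus the beta chain whose change differed most between the lines, by 1.63 (standard error 0.067, edgeR interaction adjusted p = 4.74e-19).

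The epithelial chain beta 6 also rose more in the libraries labelled U138MG. *ITGB6* had 137, 158 and 151 normalized CPM in DMSO and 177, 177 and 189 in PTDSS1i in KYSE30 (log2 fold change 0.28, edgeR adjusted p = 0.00017), and 22.6, 28.0 and 24.7 against 61.0, 61.2 and 56.3 in the other line (1.24, edgeR adjusted p = 1.18e-14). *ITGB8*, which also pairs with alpha v, went the other way in size, with 46.0, 48.2 and 51.4 against 79.2, 84.9 and 82.4 in KYSE30 (0.76, edgeR adjusted p = 2.41e-10). *ITGB8* in the libraries labelled U138MG had 23.5, 22.3 and 22.9 against 26.0, 25.2 and 26.4, and its call there (0.18, edgeR adjusted p = 0.0222) was lost in 4 of 13 alternatives. These were scaling by library size alone (0.03, adjusted p = 0.684) or by upper quartile (0.03, adjusted p = 0.674), DESeq2 (0.19, adjusted p = 0.0548), and leaving out DMSO replicate 2 (0.16, adjusted p = 0.0701). *ITGB3*, the beta 3 chain, another partner of alpha v, did not pass the filter on low counts. It had at most 2 counts per library in KYSE30, and in the libraries labelled U138MG 0 counts in each DMSO library and 20, 8 and 9 in PTDSS1i. Taking 3 counts per library as the floor in DMSO, the mean of the PTDSS1i libraries was at least 3.91-fold higher, with PTDSS1i replicate 1 well above the others. That bound on the mean covers counting error only, and 2266 bases of the exons of *ITGB3* are shared with another gene.

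The hemidesmosome pair of alpha 6 and beta 4 did not move as a pair in KYSE30. *ITGB4* (ENSG00000132470, chromosome 17, 75721328 to 75757818) rose there from 1654, 1590.1 and 1468 to 3442, 3261 and 3363 normalized CPM (log2 fold change 1.09, standard error 0.058, edgeR adjusted p = 5.36e-13). *ITGA6* had 384, 382 and 395 in DMSO and 422, 420.4 and 447 in PTDSS1i (0.15, edgeR adjusted p = 0.0119), a call lost under scaling by library size alone (0.05, adjusted p = 0.368) and without PTDSS1i replicate 3 (0.13, adjusted p = 0.0918). Per kb of merged exon, *ITGB4* stood at 232 ± 14.0 CPM in DMSO and *ITGA6* at 59.2 ± 1.07 (SD, n = 3). With PTDSS1i they stood at 496 ± 13.4 and 65.8 ± 2.28. Here and below, levels of different genes are only roughly comparable per kb, since they depend on the exon lengths used. Each gene has the same length in both treatments, so the relative change of a ratio does not depend on it. The ratio of *ITGB4* to *ITGA6* per kb went from 4.16, 4.02 and 3.59 in the DMSO libraries to 7.88, 7.5 and 7.27 in the PTDSS1i libraries, without overlap. For this and the other ratios the smallest p that an exact two-sided permutation test of 3 libraries against 3 allows is 0.1, so none is tested.

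The same ratio stayed near 1 in the libraries labelled U138MG. It was 0.966, 1.05 and 0.946 in DMSO and 1.05, 1.06 and 0.906 in PTDSS1i, and the groups overlapped. *ITGA6* rose from 197, 205 and 188 to 258, 257 and 241 normalized CPM (log2 fold change 0.36, edgeR adjusted p = 2.02e-09). *ITGB4* had 197, 223 and 184 against 279.9, 283 and 226, which did not overlap but did not pass the test (0.38, standard error 0.13, edgeR adjusted p = 0.0562). It passed without PTDSS1i replicate 3 (0.49, adjusted p = 0.00459), in DESeq2 (0.39, adjusted p = 0.00398) and in the joint fit of both lines (0.39, adjusted p = 0.00232).

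**Figure D2:**
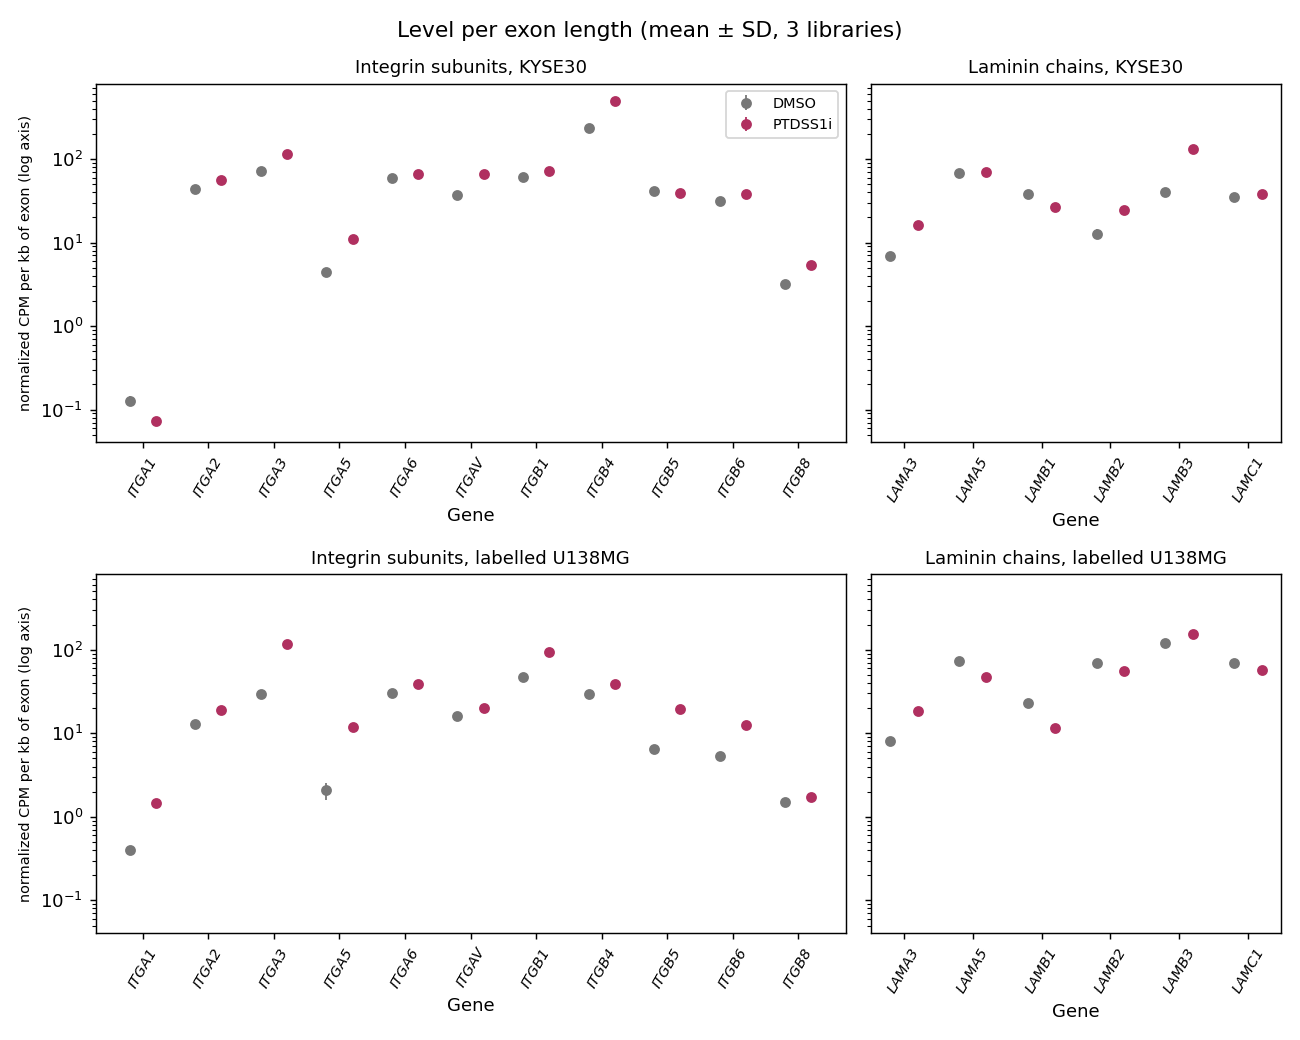
The vertical axes give normalized CPM per kb of merged GENCODE exon on a log axis, as the mean and SD of 3 libraries, for integrin subunits on the left and laminin chains on the right, with KYSE30 above and the libraries labelled U138MG below. Grey points are DMSO and red points PTDSS1i. ITGB4 is the highest integrin in KYSE30, at 232 and 496, and in the lower panels ITGA3 climbs from 29.9 to 118. The tables were scaled separately, so heights are comparable within a row of panels only.

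The other genes of the hemidesmosome were 3 higher and 0 lower of 4 in KYSE30, and 1 higher and 1 lower of 4 in the libraries labelled U138MG. *COL17A1* (ENSG00000065618, chromosome 10, 104031286 to 104085957) encodes collagen XVII, a transmembrane protein of the hemidesmosome. It rose in KYSE30 from 516, 571 and 502 to 798, 842 and 839 normalized CPM (log2 fold change 0.64, edgeR adjusted p = 2.12e-09) and fell in the other line from 88.0, 93.9 and 79.1 to 44.6, 47.9 and 38.6 (-1.0, standard error 0.094, edgeR adjusted p = 4.55e-05). The lines differed by -1.68 (standard error 0.099, edgeR interaction adjusted p = 6.73e-11). *COL7A1*, the collagen of the anchoring fibrils, rose in KYSE30 from 7.43, 9.13 and 7.40 to 15, 15.7 and 16.6 (0.99, edgeR adjusted p = 2.72e-08), and did not pass in the other line (-0.02, edgeR adjusted p = 0.9). *PLEC*, the plakin that ties beta 4 to keratin filaments, rose by 0.41 in both lines (edgeR adjusted p = 3.09e-06 and 2.42e-11).

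*DST*, which encodes the plakin BPAG1 among other isoforms, varied widely between libraries. Its PTDSS1i libraries had 186, 338 and 229 normalized CPM in KYSE30, on both sides of its DMSO libraries at 215, 281 and 266 (log2 fold change -0.02, standard error 0.27, edgeR adjusted p = 0.962). The DMSO libraries labelled U138MG had 222, 244 and 228, and the PTDSS1i libraries 419.6, 336 and 272 (0.56, edgeR adjusted p = 0.0518). Leaving out PTDSS1i replicate 1 or 3 brought it past the threshold there, at 0.40 (adjusted p = 0.0221) and 0.71 (adjusted p = 0.014). It also passed there in DESeq2 with all libraries (0.57, adjusted p = 0.00348).

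Laminins are trimers of an alpha, a beta and a gamma chain. *LAMA3* and *LAMB3* encode an alpha and a beta chain of the laminin on which squamous epithelium rests. Both genes rose in both lines. In KYSE30 *LAMB3* (ENSG00000196878, chromosome 1, 209614870 to 209652466) rose from 183, 205 and 182 to 641, 588 and 602 normalized CPM (log2 fold change 1.69, standard error 0.058, edgeR adjusted p = 3.9e-16). *LAMA3* rose from 109.6, 95.4 and 99.0 to 250, 224 and 235 (1.22, edgeR adjusted p = 9.28e-14). The treatments did not overlap for either gene.

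The 2 chains in the libraries labelled U138MG rose by different amounts. *LAMA3* went from 121, 124 and 112 to 271, 275 and 261 (log2 fold change 1.18, edgeR adjusted p = 8.92e-21). *LAMB3* went from 576, 599 and 533 to 736, 752 and 672 (0.34, edgeR adjusted p = 4.53e-05). *LAMB3* therefore differed between the lines by -1.39 (standard error 0.075, edgeR interaction adjusted p = 2.14e-15), whereas for *LAMA3* the difference was -0.08 (standard error 0.074, adjusted p = 0.382). The *LAMA3* difference passed in 2 of 18 alternatives. These were upper-quartile scaling (-0.19, edgeR adjusted p = 0.023) and leaving out KYSE30 DMSO replicate 1 (-0.16, edgeR adjusted p = 0.0481). Per kb of exon, the ratio of *LAMB3* to *LAMA3* went down from 14.9, 15.1 and 14.9 to 8.50, 8.56 and 8.06 in the libraries labelled U138MG. In KYSE30 it went up from 5.23, 6.73 and 5.76 to 8.03, 8.22 and 8.02, and the treatments did not overlap in either line. *LAMA3* stood at 6.90 ± 0.503 CPM per kb and *LAMB3* at 40.5 ± 2.77 in KYSE30 DMSO (SD, n = 3). The corresponding values in the libraries labelled U138MG were 8.11 ± 0.425 and 121 ± 7.15.

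The chains of the broadly used laminins 511 and 521, *LAMA5*, *LAMB1*, *LAMB2* and *LAMC1*, all fell in the libraries labelled U138MG, by between 0.29 and 0.98 on the log2 scale. *LAMB1* had 188, 190.0 and 185 normalized CPM in DMSO and 98.6, 93.9 and 92.0 in PTDSS1i (-0.98, standard error 0.037, edgeR adjusted p = 2.46e-19). *LAMA5* fell by 0.65 (edgeR adjusted p = 9.72e-13) between 1023, 1124 and 1030.1 and 684, 696 and 641. These genes did not move together in KYSE30. There *LAMB1* fell by 0.50 (edgeR adjusted p = 1.56e-08), and *LAMA5* had 943, 1071 and 872 against 1038, 991 and 1001, which overlapped (0.07, edgeR adjusted p = 0.352). Without DMSO replicate 2 *LAMA5* was called higher in KYSE30 (0.15, adjusted p = 0.0285).

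*LAMB2* and *LAMC1* moved in opposite directions in the lines. *LAMB2* rose in KYSE30 from 83.0, 102 and 79.6 to 177, 162 and 168 (log2 fold change 0.94, edgeR adjusted p = 1.89e-07) and fell in the other line from 470.3, 496 and 468 to 385, 375 and 378 (-0.33, edgeR adjusted p = 8.23e-10). *LAMC1* fell in the libraries labelled U138MG from 594, 595 and 575 to 473, 490.1 and 483 (-0.29, edgeR adjusted p = 9.52e-09). In KYSE30 it had 289.6, 299 and 298 against 322, 308 and 331 (0.12, edgeR adjusted p = 0.0494), a rise at the threshold that was lost in 7 of 13 alternatives, scaling by library size alone among them (0.01, adjusted p = 0.855). Leaving out DMSO replicate 2 or 3, or PTDSS1i replicate 1 or 3, was enough to lose it, at log2 fold changes from 0.10 to 0.12 (adjusted p from 0.053 to 0.207).

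The remaining alpha chains were low. *LAMA1* had 0.499, 0.427 and 0.222 normalized CPM in DMSO and 2.90, 2.76 and 2.80 in PTDSS1i in the libraries labelled U138MG, on at most 10 counts per DMSO library. Only 2 of its DMSO libraries reached the cutoff of the filter, so it was tested because it was high in PTDSS1i, and its log2 fold change of 2.87 (standard error 0.31) is given as a description. *LAMA4*, found mainly in vessels and muscle, had 6.34, 7.82 and 6.12 against 13.5, 11.6 and 15.7 there (1.01, edgeR adjusted p = 7.19e-08). In KYSE30 *LAMA4* had 2, 0 and 3 counts in DMSO and 12, 4 and 1 in PTDSS1i and was not tested.

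Collagen IV forms the other network of the basement membrane, and its main chains, alpha 1 and alpha 2, are encoded head to head. In the RefSeq promoter table (GRCh38.p14) 126 bases lie between the starts of *COL4A1* and *COL4A2* on chromosome 13, from 110307157 to 110307284, and 379 between those of *COL4A6* and *COL4A5* on chromosome X. In KYSE30 *COL4A1* (ENSG00000187498) fell from 41.2, 36.4 and 38.5 to 15.9, 16.4 and 18.3 normalized CPM (log2 fold change -1.20, standard error 0.075, edgeR adjusted p = 8.72e-12). *COL4A2* (ENSG00000134871) fell from 98.9, 88.5 and 90.9 to 45.8, 45.1 and 41.0 (-1.08, edgeR adjusted p = 1.53e-12). Both fell without overlap, and their ratio per kb, at 0.545, 0.538 and 0.554 in DMSO and 0.454, 0.476 and 0.584 in PTDSS1i, overlapped between treatments.

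The same neighbours parted in the libraries labelled U138MG. *COL4A1* rose from 2.60, 3.67 and 2.26 to 15.9, 15.5 and 15.9 normalized CPM (log2 fold change 2.46, standard error 0.13, edgeR adjusted p = 1.35e-15), whereas *COL4A2* rose from 10.5, 11.1 and 12.1 to 14.0, 15.1 and 14.2 (0.35, standard error 0.092, edgeR adjusted p = 0.00135). Their ratio per kb went from 0.324, 0.433 and 0.245 to 1.49, 1.34 and 1.47. On that scale *COL4A1* lay below *COL4A2* in every DMSO library and above it in every PTDSS1i library. The changes differed between the lines by 3.62 for *COL4A1* and 1.39 for *COL4A2* (edgeR interaction adjusted p = 4.74e-19 and 5.95e-13). The exons of *COL4A2* share 95 bases with antisense genes.

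The alpha 5 and alpha 6 chains, a second collagen IV network of some epithelia, changed by smaller folds than *COL4A1*. *COL4A5* rose in KYSE30 from 125, 151 and 136 to 162, 169 and 172 (log2 fold change 0.29, edgeR adjusted p = 0.000322) and fell in the other line from 96.8, 103 and 97.4 to 84.3, 78.6 and 84.3 (-0.27, edgeR adjusted p = 3.15e-06). *COL4A6* had 6.79, 6.66 and 6.51 against 4.94, 5.76 and 5.94 in KYSE30, without overlap but without a call (-0.26, edgeR adjusted p = 0.0726). Scaling by library size alone made it a call of lower in KYSE30 (-0.36, edgeR adjusted p = 0.0165). It fell from 17.8, 18.6 and 16.9 to 13.2, 12.6 and 11.4 in the libraries labelled U138MG (-0.52, edgeR adjusted p = 6.39e-06). The ratio of *COL4A5* to *COL4A6* per kb went from 14.4, 17.7 and 16.3 to 25.7, 23.0 and 22.7 in KYSE30. In the other line the ratio went from 4.25, 4.33 and 4.51 to 5.00, 4.88 and 5.78, and the treatments overlapped in neither line.

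Of the linkers, nidogen 1 rose in both lines from a low level. *NID1* had 1.42, 1.36 and 1.70 normalized CPM in DMSO and 3.45, 3.52 and 2.97 in PTDSS1i in KYSE30 (log2 fold change 1.13, standard error 0.19, edgeR adjusted p = 2.2e-05). In the other line it had 0.549, 1.03 and 0.666 against 2.11, 2.35 and 1.80 (1.46, standard error 0.30, edgeR adjusted p = 0.000103). The proteoglycan perlecan, *HSPG2*, fell in KYSE30 (-0.44, edgeR adjusted p = 3.31e-07) and did not pass in the libraries labelled U138MG (0.00, edgeR adjusted p = 0.931). Agrin, *AGRN*, passed in neither line (0.12 and -0.05, edgeR adjusted p = 0.0909 and 0.203), and was called higher in KYSE30 without DMSO replicate 2 (0.18, adjusted p = 0.00606) and in the joint fit of both lines (0.16, adjusted p = 0.00604). Scaling by library size alone turned *AGRN* and *HSPG2* into calls of lower in the libraries labelled U138MG, at -0.20 and -0.15. Across the 15 basement membrane genes the counts were 6 higher and 4 lower of 13 tested in KYSE30, and 7 higher and 6 lower of 15 in the other line. Their medians were 0.12 and 0.00.

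Among the interstitial and matricellular members, 4 of the 5 tested in KYSE30 fell and *COL1A1* rose, with a median log2 fold change of -1.24. Of the 6 members tested in the libraries labelled U138MG, 3 rose and 3 fell, with a median of -0.07. The list of other interstitial matrix genes below did not move down in KYSE30, with a median of 0.02 and 9 higher and 6 lower of 22. *THBS1* (ENSG00000137801, chromosome 15, 39581079 to 39599466) encodes thrombospondin 1, which binds integrins and CD47 and activates latent TGF-beta. It fell in KYSE30 from 165, 158 and 162 to 55.2, 53.0 and 51.6 normalized CPM (-1.60, standard error 0.053, edgeR adjusted p = 2.18e-16). It rose in the libraries labelled U138MG from 38.4, 38.1 and 43.0 to 77.0, 74.0 and 75.4 (0.92, standard error 0.051, edgeR adjusted p = 1.85e-15). The difference between the lines was 2.48 (standard error 0.074, edgeR interaction adjusted p = 1.6e-22).

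Tenascin C, a hexameric glycoprotein of wounds and tumour stroma, was the member whose changes differed most. *TNC* (ENSG00000041982, chromosome 9, 115019578 to 115118257) fell in KYSE30 from 126, 126 and 122 to 66.4, 59.4 and 64.2 normalized CPM (log2 fold change -0.97, standard error 0.055, edgeR adjusted p = 1.21e-12). The libraries labelled U138MG showed a rise from 0.899, 1.24 and 1.69 to 20.1, 18.8 and 18.3 (3.88, standard error 0.15, edgeR adjusted p = 1.99e-19), the largest fold change of any member in that line. The lines differed by 4.82 (standard error 0.13, edgeR interaction adjusted p = 4.64e-23). Its exons share 129 bases with *DEC1* and those of *THBS1* share 859 bases with *FSIP1* and an antisense gene.

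Fibronectin, the main ligand of alpha 5 beta 1, and SPARC, a collagen-binding protein, fell in both lines. *FN1* (ENSG00000115414, chromosome 2, 215360440 to 215436172) had 73.4, 116 and 94.7 normalized CPM in DMSO and 42.0, 37.5 and 37.0 in PTDSS1i in KYSE30 (log2 fold change -1.28, standard error 0.20, edgeR adjusted p = 0.00369), with a wide spread among the DMSO libraries. In the other line it fell from 68.7, 76.4 and 71.3 to 49.2, 44.7 and 44.6 (-0.64, standard error 0.052, edgeR adjusted p = 7.46e-12). The fall of *FN1* thus went with a rise of its receptor chain *ITGA5* in each line. *SPARC* fell from 3.27, 4.64 and 5.23 to 2.28, 2.19 and 1.20 in KYSE30 (-1.24, standard error 0.23, edgeR adjusted p = 0.00012), on 29 to 123 counts. Among the libraries labelled U138MG it was the highest member per kb of exon in DMSO, at 140.4 ± 3.07 CPM (SD, n = 3), and fell from 682, 691 and 662 to 365, 356 and 379 (-0.89, standard error 0.034, edgeR adjusted p = 3.79e-19).

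Collagen I was read through *COL1A1* alone, since *COL1A2*, its partner chain, had at most 3 counts in any library of either line. *COL1A1* rose in KYSE30 from 9.82, 11.2 and 9.82 to 17.2, 19.2 and 16.9 (log2 fold change 0.79, edgeR adjusted p = 2.05e-07). For the libraries labelled U138MG the values were 50.6, 52.0 and 52.8 against 59.3, 58.4 and 55.3, and the call (0.15, edgeR adjusted p = 0.00712) was lost under scaling by library size alone (0.01, adjusted p = 0.933) and by upper quartile (0.01, adjusted p = 0.915). *FBLN2*, fibulin 2, was at no more than 10 counts in KYSE30 and was not tested there, and fell by 0.29 on the log2 scale in the other line (edgeR adjusted p = 2.61e-08).

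The sequence before the start of these 3 genes is shown because *FN1* fell in both lines while *THBS1* and *TNC* moved in opposite directions. RefSeq windows of 250 bases before the start (GRCh38.p14) were found for 32 of the 39 members. Each line below gives the longest stretch of that window that lies in no GENCODE exon, 5′ to 3′ on the gene's strand, with motif matches on either strand in capitals. The motifs searched were the AP-1 site TGANTCA, the cyclic AMP response element or CRE with the letters TGACGTCA, the CCAAT box of those letters, the GC box with GGGCGG, and the TATA box as TATAAA. The stretches are chr2:215436173-215436252 on the minus strand for *FN1*, chr9:115118258-115118407 on the minus strand for *TNC* and chr15:39580829-39581078 on the plus strand for *THBS1*.
FN1: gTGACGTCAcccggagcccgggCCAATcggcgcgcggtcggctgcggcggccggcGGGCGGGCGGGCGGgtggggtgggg
TNC: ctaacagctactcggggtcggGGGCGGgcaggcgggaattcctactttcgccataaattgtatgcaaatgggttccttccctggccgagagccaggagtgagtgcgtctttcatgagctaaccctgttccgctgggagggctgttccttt
THBS1: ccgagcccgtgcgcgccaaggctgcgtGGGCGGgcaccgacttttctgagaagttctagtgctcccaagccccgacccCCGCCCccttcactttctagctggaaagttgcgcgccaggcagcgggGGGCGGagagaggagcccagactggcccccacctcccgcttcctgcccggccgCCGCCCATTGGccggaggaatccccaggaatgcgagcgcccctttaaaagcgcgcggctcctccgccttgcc

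The *FN1* stretch held a CRE, whose first base lies 183 bases before the start, a CCAAT at 162 and 3 GC boxes that overlap each other. The *TNC* stretch held 1 GC box, and that of *THBS1* held 4 GC boxes and a CCAAT on the minus strand, next to 1 of them. Over the whole 250 bases *FN1* was the only one of the 32 members with the CRE, which 2.03% of 27305 genes held. The AP-1 motif was found for 2 of the 32, *LAMA3* and *LAMB3*, against 8.06% of genes, and CCAAT for 11, against 37.0%. The GC box was found for 25 of the 32, against 46.2% of genes, a background that also holds non-coding genes. TATAAA was found for 4, against 13.0%. These matches describe letters and not bound sites.

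**Figure D3:**
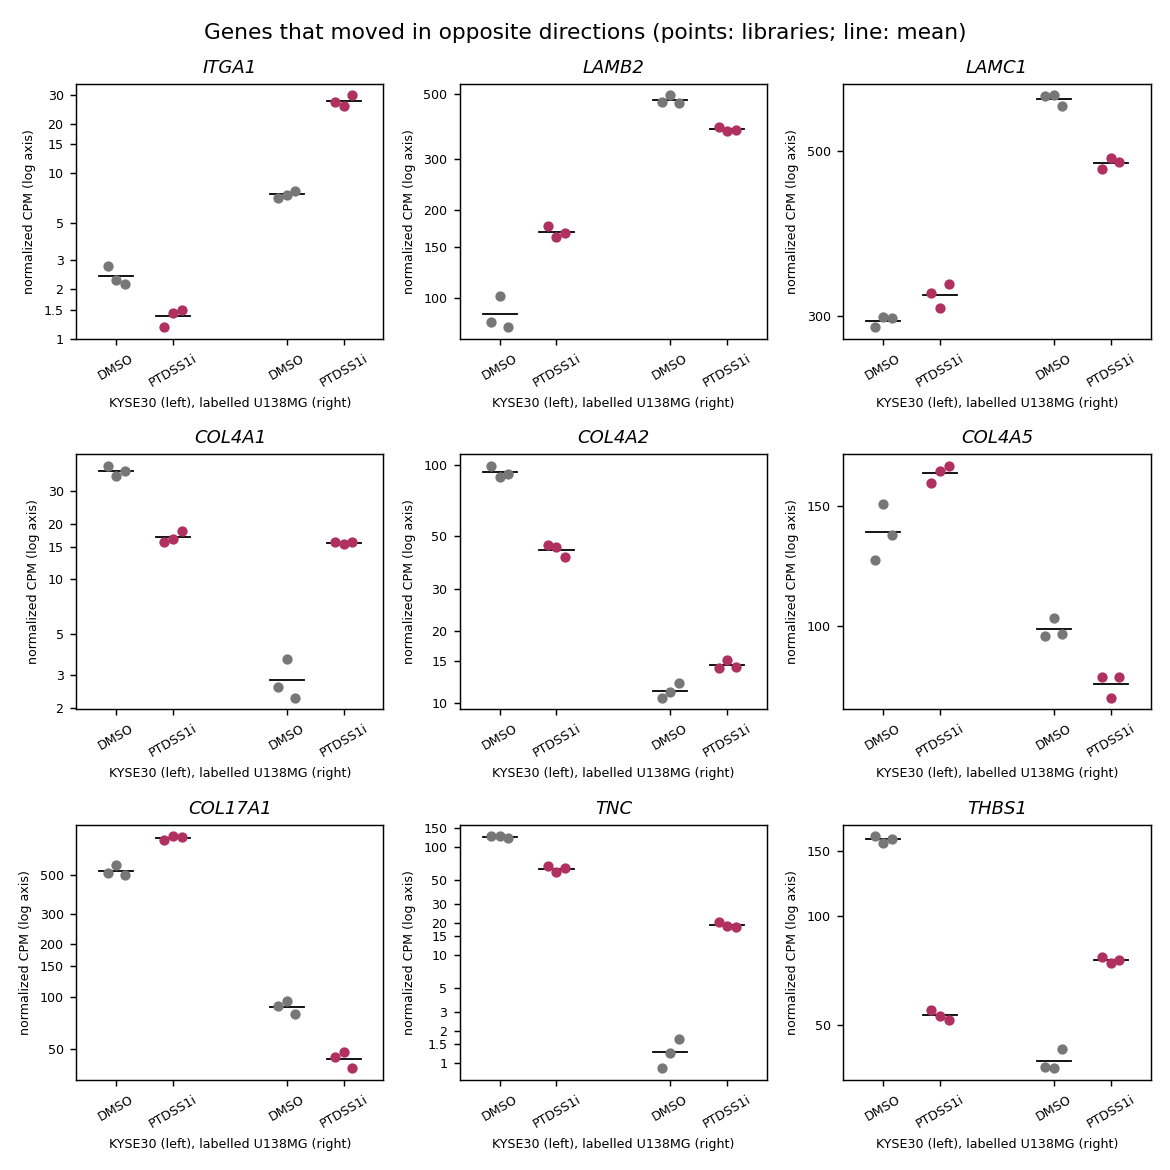
Each panel gives 1 of the 9 members called in opposite directions, with normalized CPM on a log axis, a point for each library and a line at the mean of 3. DMSO is grey and PTDSS1i red, with KYSE30 on the left and the libraries labelled U138MG on the right. In every panel the 2 treatments are separate in both lines, and the direction of the step turns from one line to the other. The tables were scaled separately, so only steps within a line are comparable.

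Syndecans carry heparan sulfate at the cell surface and work with integrins in binding fibronectin and laminin. *SDC4* was the member that rose most in KYSE30, from 127, 120.2 and 122 to 448, 455 and 454 normalized CPM (log2 fold change 1.88, standard error 0.051, edgeR adjusted p = 1.17e-17). In the libraries labelled U138MG it had 178, 170.4 and 172 against 191, 193 and 189 (0.14, edgeR adjusted p = 0.000845), a direction that turned without a call under scaling by library size alone (-0.01, adjusted p = 0.856) and by upper quartile (-0.01, adjusted p = 0.88). The lines differed by -1.78 (standard error 0.059, edgeR interaction adjusted p = 2.97e-21). *SDC1*, the main syndecan of epithelia, rose by 0.25 and 0.35 (edgeR adjusted p = 0.000161 and 6.43e-10), with a difference of 0.06 between the lines (standard error 0.059, edgeR interaction adjusted p = 0.462).

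Of the 35 members tested in both lines, 15 were higher in both and 3 lower in both, *LAMB1*, *FN1* and *SPARC*, against 34.0% of 13990 genes called in the same direction. Opposite calls were made for 9, against 14.9% of genes. *LAMB2*, *LAMC1*, *COL4A5* and *COL17A1* were higher in KYSE30 and lower in the libraries labelled U138MG, and *ITGA1*, *COL4A1*, *COL4A2*, *TNC* and *THBS1* the reverse. The remaining 8 lacked a call in at least 1 line. Among the calls behind these counts, those of *ITGA6* and *LAMC1* in KYSE30 were lost under at least 1 other scaling. So were those of *ITGB8*, *COL1A1* and *SDC4* in the libraries labelled U138MG. The change itself differed between the lines for 28 of 37 members tested (edgeR interaction adjusted p under 0.05), against 49.9% of 18405 genes, and by more than 1 on the log2 scale for 13, against 16.4%.

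**Figure D4:**
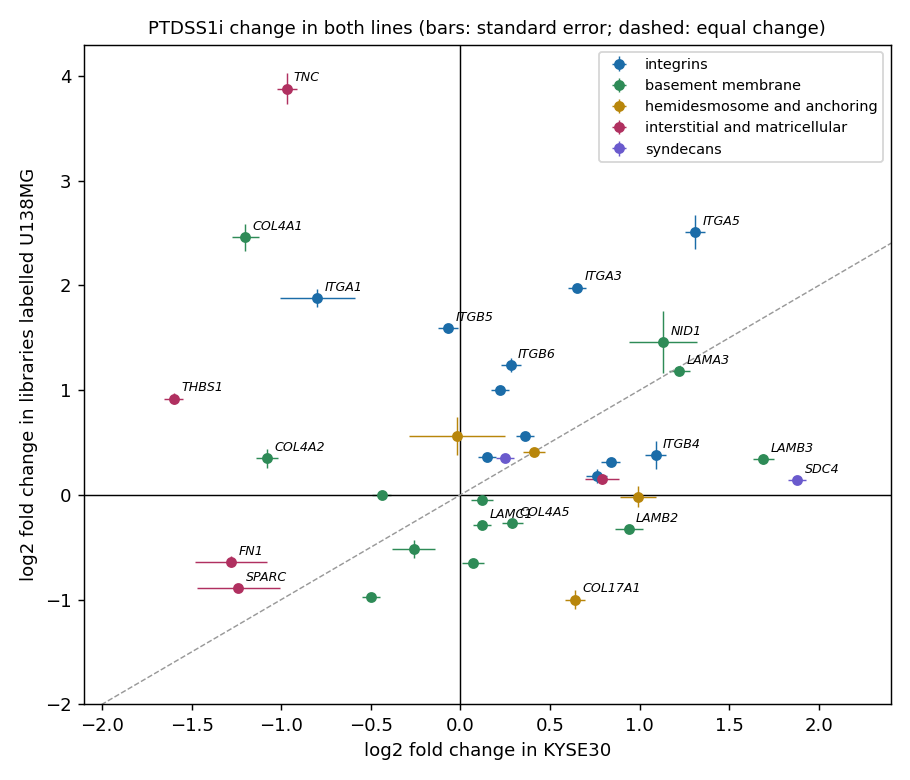
The horizontal axis is the log2 fold change in KYSE30 and the vertical axis that in the libraries labelled U138MG, with standard errors as bars, 1 point for each of the 35 members tested in both lines, coloured by class. The dashed line marks equal change. TNC, COL4A1, ITGA1, THBS1 and COL4A2 lie upper left, COL17A1 and LAMB2 lower right, and ITGA5, NID1 and LAMA3 upper right past 1 on both axes.

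Other genes of adhesion and matrix, taken from written lists, gave the following counts, beside the 62.0% of all genes called in KYSE30 and 67.5% in the libraries labelled U138MG. Between 40.0% and 85.7% of the tested genes of a list were called in KYSE30, and between 76.0% and 93.3% in the other line, with focal adhesion genes at 66.7% in KYSE30, near the share of all genes. Of other integrin subunits, 0 were higher and 2 lower of 5 tested in KYSE30, and 4 higher and 4 lower of 9 in the libraries labelled U138MG. Other basement membrane genes were 4 higher and 4 lower of 10 in KYSE30 and 7 and 7 of 15 in the other line. There *COL4A3*, a collagen IV chain, rose from 4.64, 4.78 and 4.93 to 13.9, 13.5 and 15.3 normalized CPM (log2 fold change 1.57, edgeR adjusted p = 4.79e-13), as did *NTN4*, netrin 4 (1.15). *FRAS1*, *LAMA2* and *FBLN1* fell by 1.44, 1.35 and 1.18.

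Other interstitial matrix genes were 9 higher and 6 lower of 22 in KYSE30, where *CCN2* (CTGF) fell from 68.0, 63.2 and 67.2 to 27.3, 26.7 and 27.5 (log2 fold change -1.28, edgeR adjusted p = 6.11e-14). *COL12A1* fell there by 1.22 and *TNXB* rose by 1.34. Counts in the libraries labelled U138MG were 9 higher and 10 lower of 25, where *EFEMP1* (fibulin 3) fell from 65.1, 67.0 and 60.8 to 5.22, 6.40 and 4.87 (-3.55, edgeR adjusted p = 1.48e-24). *MFAP2* and *COL5A2* fell there by 1.46 and 1.38.

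Of the enzymes that build and crosslink collagen, 7 were higher and 10 lower of 23 in KYSE30, and 14 higher and 4 lower of 22 in the libraries labelled U138MG. The lysyl oxidase *LOXL2* rose in both, from 36.8, 25.6 and 26.2 to 120.4, 93.8 and 99.3 in KYSE30 (log2 fold change 1.83, edgeR adjusted p = 0.000603) and from 57.7, 85.5 and 55.1 to 529, 525 and 504 in the other line (2.97, edgeR adjusted p = 0.000167). *P4HA1*, a prolyl hydroxylase, rose by 1.60 in KYSE30, and *LOXL4* fell by 1.85 in the libraries labelled U138MG.

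Integrin adaptors and focal adhesion genes were 15 higher and 7 lower of 33 in KYSE30, with the tetraspanin *CD9* at a log2 fold change of 1.26 and *PARVB*, a parvin, at -1.44. In the libraries labelled U138MG they were 19 higher and 10 lower of 32, with *ACTN1* (alpha-actinin) and *ZYX* (zyxin) at 1.08 and 1.03, and *TLN2* (talin 2), *FERMT1* (kindlin 1) and *TNS3* (tensin 3) at -1.30, -1.10 and -1.08. Other syndecans and cell-surface proteoglycans were 5 higher and 1 lower of 7 in KYSE30 and 5 higher and 2 lower of 8 in the other line. *GPC3* (glypican 3) lay at the threshold in KYSE30 at 1.00 and fell by 1.43 in the libraries labelled U138MG, where *SDC3* rose by 1.31 and *SDCBP* (syntenin) by 1.08, and *TGFBR3* fell by 1.05. Each of these named genes had an edgeR adjusted p under 0.05.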

How the data were processed

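Poly-A RNA from 12 samples, 3 in each of 4 groups, was measured by RNA-seq with the TruSeq RNA v2 kit. The submitters' processing notes name Trimmomatic, STAR, featureCounts and hg38, without versions. The gene annotation, and whether counting was stranded, are not given in the sources used here. The authors deposited raw counts of reads per gene in a table for each line, without normalization and without pooling. Groups came from the sample labels. The labels give the KYSE30 medium for all samples, whereas the paper names DMEM for U138MG.

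The tools were edgeR 4.0.16, limma 3.58.1 and DESeq2 1.42.0 under R 4.3.3, and for annotation and figures pandas 2.3.3 and matplotlib 3.10.9 under Python 3.11.15. Genes passed filterByExpr (minimum count 10, minimum total 15) and TMM factors scaled the libraries. Within each line, treated and vehicle libraries were compared by the robust quasi-likelihood test of edgeR, and p-values were adjusted by Benjamini-Hochberg over all genes tested (adjusted p 0.05, absolute log2 fold change 1). The lines were compared by the interaction of line and treatment over 18405 genes of both tables. The tests were tried on simulated counts. The members and lists were chosen with earlier results of these data known. Per-library values are given for members past the fold threshold in a line, members called in opposite directions, and chain partners. Genes of other lists are up to 3 per direction and line with the largest change, past the fold threshold, at a mean level of 5 CPM or more, and *COL1A2* is named regardless. A gene that this rule names is not reported here. A few further values were added after they were seen. Exon lengths, overlaps and coordinates came from GENCODE release 29 on GRCh38, which matched all 39 members and is not known to be the annotation used for counting. Totals were 18800932 to 26514658 counts, and floors of 3 counts cover counting error only. With 3 libraries a group, the smallest two-sided exact permutation p is 0.1. Alternatives were other scalings, DESeq2, other filters, each library left out, a replicate block and a joint fit of both lines.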

Additional observations from a re-analysis of the deposited data

Results flagged for a closer look

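For 28 of the 37 members tested, the PTDSS1i change differed between the lines by the interaction of line and treatment (edgeR adjusted p under 0.05), against 49.9% of 18405 genes. Since the labels put each line in a batch of its own, line and batch cannot be told apart, and groups of 3 libraries were too small to be tested for outlying samples. The differences below are those of log2 fold changes, libraries labelled U138MG minus KYSE30, from the joint fit of both tables.

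Toward higher values in the libraries labelled U138MG, the difference was 4.82 for *TNC*, 3.62 for *COL4A1*, 2.63 for *ITGA1*, 2.48 for *THBS1*, 1.63 for *ITGB5*, 1.39 for *COL4A2*, 1.29 for *ITGA3* and 1.16 for *ITGA5*. It was 0.92 for *ITGB6*, 0.73 for *ITGB1*, 0.60 for *FN1*, 0.40 for *HSPG2*, 0.17 for *ITGA6* and 0.16 for *ITGA2*. Of these 14 members, 8 are integrin subunits.

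Toward higher values in KYSE30, the difference was -1.78 for *SDC4*, -1.68 for *COL17A1*, -1.39 for *LAMB3*, -1.32 for *LAMB2*, -1.04 for *COL7A1*, -0.76 for *LAMA5*, -0.75 for *ITGB4* and -0.67 for *COL1A1*. It was -0.62 for *ITGB8*, -0.60 for *COL4A5*, -0.57 for *ITGAV*, -0.52 for *LAMB1*, -0.44 for *LAMC1* and -0.21 for *AGRN*.

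The differences of *FN1*, *ITGA2* and *ITGA6* (edgeR adjusted p = 0.0392, 0.0383 and 0.0264) were lost in 14, 10 and 9 of 18 alternatives. The others stayed past the threshold in all 18 alternatives.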

How the results depend on the processing

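Each of the 110 member tests was repeated under the alternatives, 1611 repeats in all, of which 1537 kept their side of the threshold, 48 lost a call, 24 gained one and 2 turned a called direction without a call, both for *SDC4* in the libraries labelled U138MG (-0.01 with library size alone and -0.01 with upper-quartile normalization). Among the 1537, 1518 also kept direction and 19 changed sign without a call in either fit. These were of 7 member tests, *COL7A1* and *HSPG2* in the libraries labelled U138MG, *DST* and *LAMA5* in KYSE30, and the differences between the lines of *FBLN2*, *LAMA4* and *SDC1*. Library size alone moved the median over all genes from -0.03 to -0.13 in KYSE30 and from -0.03 to -0.17 in the libraries labelled U138MG, where upper-quartile normalization also gave -0.17. The split of all calls then went from 4927 higher and 5238 lower to 3932 and 6460 in KYSE30, and from 5989 and 5930 to 4533 and 7694 in the other line (4545 and 7691 with the upper quartile).

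Class medians in KYSE30 with library size alone were 0.25 for integrins, 0.01 for basement membrane, 0.42 for hemidesmosome and 0.96 for syndecans. Without a filter the integrin median was 0.31, and in the joint fit of both lines the medians were 0.40 for integrins, 0.16 for basement membrane, -1.07 for interstitial genes and 1.11 for syndecans. In the libraries labelled U138MG both scalings gave 0.85 for integrins, -0.15 for basement membrane, 0.05 for hemidesmosome, -0.22 for interstitial genes and 0.10 for syndecans, and 3 members lower past the fold. Without a filter integrins had 1.15 and syndecans 0.27, and with 10 counts in every library integrins had 0.97, basement membrane -0.05, and 2 members were lower past the fold. Leaving out each library gave basement membrane medians of 0.07 (without DMSO replicate 3) to 0.15 and interstitial medians of -1.40 to -0.98 in KYSE30, and 0 to 2 members lower past the fold in the libraries labelled U138MG, with 1 without DMSO replicate 3, 2 without PTDSS1i replicate 1 and 1 without PTDSS1i replicate 2. The cause of these shifts was not tested beyond the common shift of all genes.

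The difference between the lines was lost for *FN1* without each library except KYSE30 DMSO replicates 1 and 2. For *ITGA2* it was lost without each except KYSE30 DMSO replicate 2, KYSE30 PTDSS1i replicate 3, and DMSO replicate 2 and PTDSS1i replicate 3 labelled U138MG. For *ITGA6* it was kept without those 4 and without KYSE30 DMSO replicate 1. Deviations of same-numbered libraries correlated weakly at most, from -0.00288 to 0.0754 over both lines, and the replicate block pairs libraries by number only. With the block, 107 of 110 member tests kept their side of the threshold, *ITGB4* in the libraries labelled U138MG (0.38, edgeR adjusted p = 6.45e-11) and *AGRN* in KYSE30 (0.12, edgeR adjusted p = 0.0462) gained a call, and *FN1* lost its difference between the lines (0.58, edgeR adjusted p = 0.12). In KYSE30 every same-numbered pair correlated more than the differently numbered ones, a hint from the data and not from the design. *ITGB3* did not pass the filter on low counts and enters only the medians and counts without a filter.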
